A study of Mus musculus with 36 samples.

Results

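DNase I hypersensitive sites (DHS) over coding exons and away from promoters were examined in B3 cells, a mouse pre-B cell line. A DHS was taken when it overlapped annotated coding sequence and lay more than 1000 bp from every annotated transcription start site (TSS), in the GENCODE vM21 basic annotation of mm10, and 6 DHS of Ikzf1, the gene that encodes Ikaros, were left out. This gave 1730 of the 52788 DHS in the table (3.28%), in 1569 genes. In the Ikaros line, B3 cells carried an MSCV retroviral vector with HA-Ikaros-ERt2, an HA-tagged wild-type Ikaros that carries at its end ERt2, the hormone-binding part of the estrogen receptor, and with IRES-GFP. In the control line the vector held ERt2-IRES-GFP without Ikaros. Both lines were pools of transduced cells sorted for GFP, and neither is described as altered in its own Ikzf1. Each line was sampled at 0, 2, 6, 12, 18 and 24 h with 3 replicates numbered 4, 5 and 6, from batches 11, 12 and 13, which gave 12 groups and 36 libraries. Both lines received 0.5 µM 4-hydroxytamoxifen (4-OHT), which moves the ERt2 fusion into the nucleus, at 2 to 24 h before collection. Per the study's methods the 0 h cells had no drug and were collected apart from the rest of the course, whereas the sample labels give the drug for every library. Time 0 h and that separate collection cannot be told apart.

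DNase I cuts DNA where nucleosomes have been displaced, and a DHS is a short stretch cut more often than its surroundings. Most DHS mark promoters, enhancers and insulators. Some lie over coding exons, where the bases that a factor may bind are also codons. Ikaros is a zinc finger protein of lymphocytes that binds DNA and recruits chromatin remodelling complexes, and its entry into the nucleus drives B3 cells out of cycle and towards a later pre-B stage.

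The sequences of 9 of these DHS are shown for the genes on which the results turn, to give the share of each site that is codons. They were read from the RefSeq copy of GRCm38, the assembly also called mm10, on the strand of the gene from 5′ to 3′, with coding bases in capitals and intron bases in lower case. The Flt3, Coro1a, Rars2, Sh3d19 and Tnf sites differed between the lines after the drug, and the Chd2 and Gsdme sites differed with time. The Esr1 sites lie in a mouse gene of the estrogen receptor, and both vectors carry an estrogen receptor hormone-binding domain. The study's methods do not give the species of that domain. For Flt3 the 200 bp around the exon are given, and the other 8 are whole DHS.
Flt3 coding exon 20 of 24, chr5:147341174-147341373: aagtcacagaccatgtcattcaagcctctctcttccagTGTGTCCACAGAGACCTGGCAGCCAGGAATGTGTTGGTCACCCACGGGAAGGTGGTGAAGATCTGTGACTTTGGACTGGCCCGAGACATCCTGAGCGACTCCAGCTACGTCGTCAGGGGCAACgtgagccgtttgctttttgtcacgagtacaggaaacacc
Coro1a coding exon 5 of 10, chr7:126701222-126701383: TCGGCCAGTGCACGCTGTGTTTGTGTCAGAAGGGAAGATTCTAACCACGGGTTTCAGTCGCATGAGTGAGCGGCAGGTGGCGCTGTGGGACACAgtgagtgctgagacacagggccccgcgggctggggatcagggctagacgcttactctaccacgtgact
Rars2 coding exon 12 of 20, chr4:34650119-34650255: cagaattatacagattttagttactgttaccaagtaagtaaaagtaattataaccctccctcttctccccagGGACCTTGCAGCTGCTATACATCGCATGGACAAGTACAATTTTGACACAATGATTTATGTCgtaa
Sh3d19 coding exon 9 of 15, chr3:86114767-86114885: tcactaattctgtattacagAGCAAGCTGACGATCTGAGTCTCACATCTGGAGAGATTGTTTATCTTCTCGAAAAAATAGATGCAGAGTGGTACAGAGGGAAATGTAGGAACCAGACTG
Tnf coding exon 4 of 4, chr17:35200561-35200731: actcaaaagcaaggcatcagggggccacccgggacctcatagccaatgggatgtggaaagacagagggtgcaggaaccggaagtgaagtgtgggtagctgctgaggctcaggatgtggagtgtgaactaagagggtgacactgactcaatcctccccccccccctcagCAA
Chd2 coding exon 37 of 38, chr7:73435876-73435962: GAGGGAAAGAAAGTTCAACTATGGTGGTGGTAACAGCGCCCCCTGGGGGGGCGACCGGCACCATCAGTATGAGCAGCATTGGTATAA
Gsdme coding exon 6 of 9, chr6:50220962-50221118: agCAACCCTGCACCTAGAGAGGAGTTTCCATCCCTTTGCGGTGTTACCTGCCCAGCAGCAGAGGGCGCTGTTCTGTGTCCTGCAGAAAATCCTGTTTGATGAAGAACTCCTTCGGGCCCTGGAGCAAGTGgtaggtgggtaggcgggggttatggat
Esr1 coding exon 5 of 8, chr10:4939203-4939335: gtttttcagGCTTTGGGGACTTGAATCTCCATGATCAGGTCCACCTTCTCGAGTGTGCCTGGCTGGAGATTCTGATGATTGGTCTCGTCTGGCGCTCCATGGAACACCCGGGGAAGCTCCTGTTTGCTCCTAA
Esr1 coding exon 7 of 8, chr10:4997789-4997958: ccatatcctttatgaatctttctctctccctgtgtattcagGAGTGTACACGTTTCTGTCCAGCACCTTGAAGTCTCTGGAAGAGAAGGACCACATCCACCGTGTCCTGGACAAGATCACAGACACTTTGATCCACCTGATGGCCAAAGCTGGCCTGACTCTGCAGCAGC
The Flt3, Rars2 and Gsdme sequences hold a whole coding exon with intron on both sides. The Sh3d19, Tnf and both Esr1 sites join the end of an intron to the start of an exon, and the Tnf site holds only 3 coding bases. The Coro1a site runs from the exon into the next intron. All 87 bases of the Chd2 site are codons.

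Coding exon DHS mostly held coding and other bases together. The median DHS was 501 bp wide and 25.5% coding, and 583 (33.7%) were at most 200 bp wide. A coding exon edge lay inside 1611 (93.1%), 393 (22.7%) were as much coding as not or more, and 119 (6.88%) were coding throughout. Annotated untranslated region (UTR) was overlapped by 258 (14.9%), so the bases that are not coding need not all be intron. The exon was internal to its coding sequence in 1373 (79.4%), the last coding exon in 284 (16.4%), the first in 52 (3.01%) and the only one in 21 (1.21%), and 137 DHS (7.92%) held more than 1 coding exon. The centre of the DHS was coding in 539 (31.2%), while in 549 (31.7%) it lay upstream of the nearest coding exon and in 642 (37.1%) downstream of it, by the direction of the gene. The centre was coding in 308 of the 583 DHS of at most 200 bp and in 231 of the 1147 wider ones. The rule asks only for some overlap with coding sequence, so the centre of a wider DHS can lie further outside an exon. This contrast follows at least in part from width and rule. The median distance to a TSS was 10322 bp, and 110 DHS (6.36%) were more than 50 kb away.

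**Figure D1:**
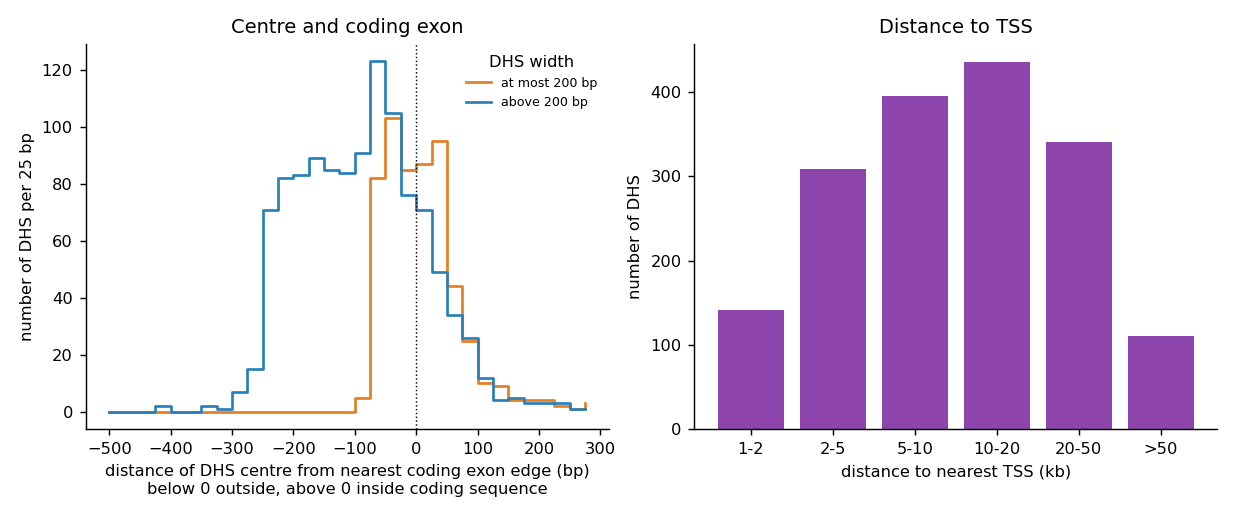
Position of the 1730 coding exon DHS. Left, number of DHS per 25 bp by the distance in bp of the DHS centre from the nearest coding exon edge (below 0 outside, above 0 inside coding sequence), for DHS of at most 200 bp and wider ones. The centres of wide DHS reach further outside the exon, which the overlap rule allows. Right, number of DHS by distance to the nearest TSS in kb, with the tallest bar at 10 to 20 kb.

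Values are log2 of normalised DNase-seq read density per DHS, already corrected for noise by the authors, so a difference of 1 is a 2-fold difference. The median coding exon DHS had a mean level of 3.94 over the 36 libraries, close to 3.81 for intron DHS and below 4.57 for promoter DHS. Their median GC content was 52.1%, between 48.1% in introns and 59.0% at promoters, and only 0.578% were mostly soft-masked repeat, against 7.03% of intron DHS. The library median over coding exon DHS ran from 3.80 to 4.20. Set against the median of all DHS in the same library, the median coding exon DHS lay at -0.0963 to -0.0487 on average in the 6 Ikaros groups, and at -0.0267 to 0.0367 in the 6 control groups. The median SD between the 3 replicates was 0.329 in the Ikaros line at 0 h and 0.19 to 0.207 at its other times, and 0.247 to 0.378 in the control line.

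The labelled cell type was checked at promoters. Promoter DHS were in the table for 7 of 8 pre-B cell markers (Cd79a, Cd79b, Pax5, Ebf1, Vpreb1, Igll1 and Rag1), with a mean of 5.21 over the highest DHS of each, and for 0 of 4 T cell and 0 of 2 muscle markers. Of 4 myeloid markers Lyz2 had one at 3.29, and of 3 erythroid markers Klf1 had one at 4.58.

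The highest coding exon DHS stood far from the rest. A 164 bp DHS over the last coding exon of Gm21738, a predicted gene, at chr14:19415711-19415874, averaged 11.85 and was the highest of all 52788 DHS, ahead of 3 promoter DHS of the same gene at 11.65, 11.25 and 11.03. Of its bases 95.7% are soft-masked repeat, and its libraries ran from 10.26 to 13.48, so reads from other copies of the repeat cannot be told apart from reads of this gene. The next highest were Hnrnpl (5.95; an RNA-binding regulator of splicing), Ltbp4 (5.88; a latent TGF-beta binding protein), Ap1m2 (5.79; a clathrin adaptor subunit) and Coro1a (5.70).

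The first comparison asked whether the lines already differed at 0 h. They did at 179 coding exon DHS (10.3%), of which 136 (7.86%) were lower and 43 (2.49%) higher in the Ikaros line. Over all DHS, 5.04% were lower and 7.81% higher. Of intron DHS 6.31% were lower and 1.87% higher, and of promoter DHS 1.22% were lower and 24.8% higher. The median difference was -0.22 in coding exon DHS, -0.19 in intron DHS and 0.34 in promoter DHS. The 3 Ikaros and 3 control values did not overlap at 23.7% of coding exon DHS and at 23.6% of all DHS.

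Cyren, which restrains end joining of DNA breaks by cell cycle stage, had the largest positive difference at 0 h. Its DHS at chr6:34874474-34874671 lies wholly in the last coding exon, and all its 198 bases are also annotated as UTR. At 0 h the Ikaros libraries gave 5.21, 5.15 and 5.11 and the control libraries 2.34, 2.54 and 4.13, a difference of 2.15 (SE 0.42, adjusted p = 0.00163). The groups did not overlap, which the naming rule required of the largest differences at the time compared. In the control line 1 library stood well above the rest. The promoter DHS of Cyren was also higher at 0 h, by 0.92 (adjusted p = 0.00079), and differed by 0.02 at 24 h (adjusted p = 0.972).

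Next came Timeless, a protein of the replication fork, and Cacna1a, a calcium channel subunit. The Timeless DHS over coding exons 15 and 16 of 28 (chr10:128246999-128247499) gave 4.56, 4.22 and 4.48 in the Ikaros line and 1.66, 3.57 and 2.98 in the control line, a difference of 1.68 (SE 0.50, adjusted p = 0.0246). Cacna1a, in coding exon 47 of 47 (chr8:84639185-84639840), gave 5.27, 4.75 and 4.89 against 3.42, 4.03 and 3.14, a difference of 1.44 (SE 0.23, adjusted p = 0.00032). In both, every Ikaros library was above every control library, as the naming rule required. The Cacna1a DHS has 68.9% GC, and the 43 higher DHS had a median GC of 60.5% against 49.2% in the 136 lower ones. With trends in mean level, GC content and width removed the Cacna1a difference was 0.69 (adjusted p = 0.0419). The Timeless call was lost without control replicate 4 or 6 or Ikaros replicate 4 or 6 (adjusted p = 0.0542 to 0.164).

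The lower side was led by DHS in which the Ikaros libraries varied more than the control libraries. Fubp1, which binds single-stranded DNA upstream of Myc, has a DHS over the 39 coding bases of its last exon (chr3:152232167-152232307), with 2.46, -0.43 and 2.43 in the Ikaros line and 3.89, 2.49 and 4.08 in the control line, a difference of -2.0 (SE 0.57, adjusted p = 0.0206). In Fgd5, an exchange factor for Cdc42, coding exon 14 of 21 (chr6:92066230-92066360) gave 0.12, 3.84 and 4.05 against 4.61, 4.56 and 4.38, a difference of -1.85 (SE 0.55, adjusted p = 0.0252). In Cacna1c, another calcium channel subunit, coding exon 40 of 48 (chr6:118606147-118606279) gave 1.35, 2.64 and 3.72 against 4.06, 4.27 and 4.48, a difference of -1.70 (SE 0.44, adjusted p = 0.0111). By the naming rule the groups did not overlap in any of the 3. The lowest Ikaros library was replicate 5 in Fubp1 and replicate 4 in Fgd5 and Cacna1c. Without that library the differences were -1.04, -0.57 and -1.09, and none passed (adjusted p = 0.188, 0.282 and 0.103). The calls were also lost without control replicate 6 in all 3 and without control replicate 4 in Fubp1 and Fgd5, and with the trends removed (adjusted p = 0.1, 0.124 and 0.0534).

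The 0 h count changed with the libraries fitted. It was 48 without control replicate 6, 110 without control replicate 4 and 91 without Ikaros replicate 4 at 0 h, and 0 when the fit used the 6 libraries at 0 h alone, where 226 had an unadjusted limma p below 0.05. After trends with mean level, GC content and width were removed from the values it was 57, and after quantile normalisation 110, of which 38 were higher and 72 lower.

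**Figure D2:**
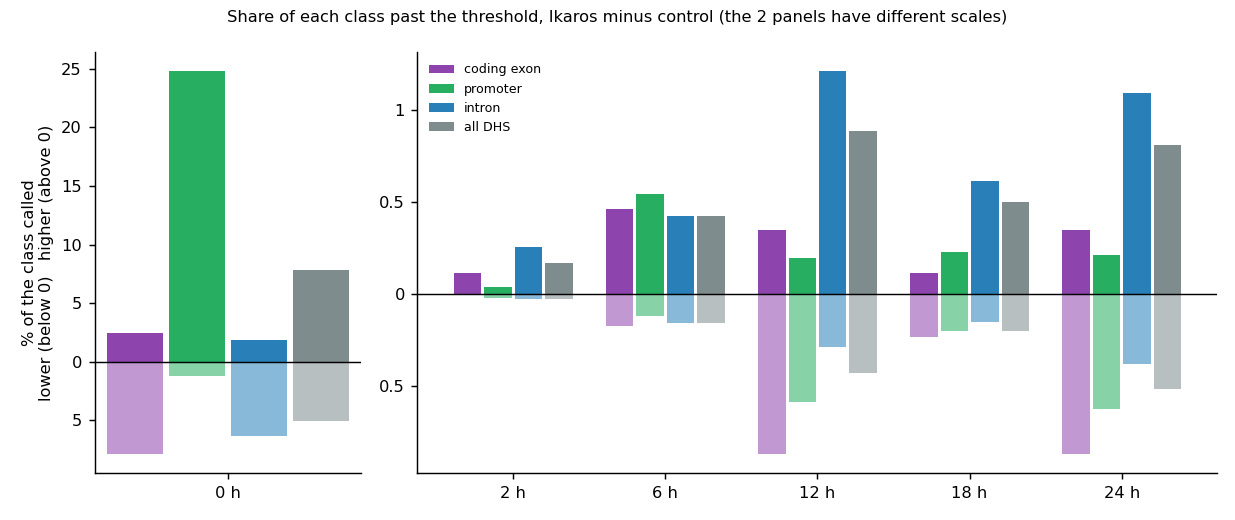
Percent of DHS in each class past an adjusted p of 0.05 for Ikaros minus control, with higher in the Ikaros line drawn above 0 and lower below 0. The left panel is 0 h and the right panel, on its own scale, 2 to 24 h. At 12 and 24 h, 0.867% of coding exon DHS were lower and 0.347% higher, while for intron DHS the higher share was the greater.

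The comparisons from 2 to 24 h asked what differed once both lines had the drug. Few coding exon DHS passed the threshold, between 2 and 21 of the 1730 at each time. At 2 h 2 were higher and 0 lower, with 0.17% of all DHS higher and 0.0246% lower, and these were Cyren and Flt3. At 6 h 8 were higher (0.462%) and 3 lower (0.173%), against 0.422% and 0.155% of all DHS, and the lower ones were Coro1a, Clip2 and Pgf. At 12 h 6 were higher (0.347%) and 15 lower (0.867%), against 0.887% and 0.428%. At 18 h 2 were higher (0.116%) and 4 lower (0.231%), against 0.5% and 0.199%, and these were Flt3 and Cyren on the higher side and Coro1a, Crybg2, Rtn2 and Ryr1 on the lower. At 24 h 6 were higher (0.347%) and 15 lower (0.867%), against 0.809% and 0.517%.

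At 12 and 24 h most coding exon calls were lower, while most calls over the whole table were higher. The share of calls that were lower was 71.4% at each of these times in coding exon DHS, near 74.8% and 74.6% in promoter DHS, while in intron DHS it was 19.2% and 25.8%. In noncoding exon DHS it lay between, at 41.2% and 52.6%. By distance to a TSS, the coding exon DHS lower at 24 h were 4 of 141 at 1 to 2 kb and 7 of 704 at 2 to 10 kb. Further out they were 4 of 775 at 10 to 50 kb and 0 of 110 above 50 kb, with 0.517% lower over all DHS. The median difference at 24 h was -0.05 in coding exon DHS, -0.05 in promoter DHS and 0.13 in intron DHS. The Ikaros and control values did not overlap at 24.7% of coding exon DHS at 24 h, against 25.5% of all DHS. In all, 35 coding exon DHS passed at 1 or more of these 5 times, 17 of them at 1 time only and 1 at all 5, and 17 of the 25 called at 12 or 24 h were called at both. The same counts were not made over all DHS. The group means are not independent, so calls of 1 DHS at several times are not separate results.

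Flt3, the receptor tyrosine kinase of early lymphoid and myeloid progenitors, was the DHS called at all 5 times. It lies over coding exon 20 of 24 at chr5:147340906-147341442, whose codons in the sequence above encode part of the kinase domain. At 24 h the Ikaros libraries gave 4.93, 5.15 and 4.77 and the control libraries 3.72, 3.80 and 3.58, a difference of 1.25 (SE 0.19, adjusted p = 0.000673). At 18 h they gave 5.04, 4.80 and 4.88 against 3.33, 3.48 and 3.82, a difference of 1.36 (SE 0.19, adjusted p = 0.000239). The lowest Ikaros library was above the highest control library at both times, as the naming rule required. The Flt3 DHS was already higher at 0 h, with 4.59, 4.92 and 4.52 against 3.97, 3.82 and 4.00, a difference of 0.75 (adjusted p = 0.00867), and the difference was 1.07 after 2 h (adjusted p = 0.0098), 1.10 after 6 h (adjusted p = 0.00361) and 0.99 after 12 h (adjusted p = 0.0079). The change of this difference from 0 h to 24 h, 0.50 (SE 0.26), did not pass (adjusted p = 0.228). A second coding exon DHS of Flt3, over coding exon 23 (chr5:147332787-147332928), differed by 0.71 at 24 h and did not pass (adjusted p = 0.427). The calls of the exon 20 DHS at 18 and 24 h held without any 1 library, and the one at 2 h was lost without Ikaros replicate 4 (adjusted p = 0.0781).

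Cyren was called at 4 of the 5 times, again on the higher side. At 6 h it gave 4.54, 4.28 and 4.94 in the Ikaros line against 2.07, 1.40 and 1.23 in the control line, a difference of 3.02 (SE 0.42, adjusted p = 0.000343), the largest at that time. The differences were 2.20 at 2 h (adjusted p = 0.0193), 1.93 at 18 h (adjusted p = 0.0235) and 1.86 at 24 h (adjusted p = 0.0218), and 1.48 at 12 h did not pass (adjusted p = 0.0668). The control libraries spread more than the Ikaros libraries at each time, with an SD of 0.82 against 0.19 at 24 h. The calls at 0 and 6 h held without any 1 library. At 2, 18 and 24 h the call was lost without any 1 of the Ikaros libraries, without control replicate 6 at 2 and 24 h, and without control replicates 4 or 5 at 18 h (adjusted p between 0.0521 and 0.139).

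Rars2 encodes the mitochondrial arginyl-tRNA synthetase. Its DHS (chr4:34650119-34650255) holds coding exon 12 of 20 and the end of the intron before it. At 24 h it gave 4.36, 4.81 and 4.22 in the Ikaros line and 1.53, 2.53 and 2.64 in the control line, a difference of 2.23 (SE 0.48, adjusted p = 0.0182), with no overlap, as the naming rule required. At 12 h it gave 3.99, 4.57 and 4.17 against 2.40, 2.34 and 0.29, a difference of 2.57 (SE 0.48, adjusted p = 0.00862). Before the drug the control libraries were the higher ones, 2.89, 2.78 and 3.01 against 3.60, 4.15 and 3.47, which did not pass (adjusted p = 0.254). With the trends removed the differences were 1.51 at 24 h (adjusted p = 0.168) and 1.80 at 12 h (adjusted p = 0.107). The call was also lost at 24 h without Ikaros replicates 4 or 5 or control replicate 4 (adjusted p = 0.0763 to 0.104), and at 12 h without Ikaros replicate 6 (adjusted p = 0.0557).

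Sh3d19, an adaptor with SH3 domains, was higher at 12 and 24 h over coding exon 9 of 15 (chr3:86114767-86114885). At 12 h it gave 4.03, 4.12 and 4.34 against 2.37, 2.85 and 2.88, a difference of 1.46 (SE 0.26, adjusted p = 0.00611). Its Ikaros group means stayed between 4.09 and 4.34 at all times, while the control means were 4.16, 3.55, 4.20, 2.70, 4.11 and 3.28 from 0 to 24 h, so that those at 6 and 18 h were near that at 0 h. Cep126, a centrosomal protein, had the third largest positive difference at 12 h, with 3.23, 3.79 and 2.79 against 1.81, 1.95 and 1.95, a difference of 1.37 (SE 0.35, adjusted p = 0.0423). The highest control value lay below the lowest Ikaros value in both DHS, as the naming rule required. The Cep126 call was lost with the replicate number fitted as a block (adjusted p = 0.0577), without any 1 of the 6 libraries (adjusted p = 0.0727 to 0.189) and with the trends removed, where the difference was 0.50 (adjusted p = 0.686). The Sh3d19 call was lost without Ikaros replicate 6 (adjusted p = 0.0557) and with the trends removed (1.09, adjusted p = 0.102).

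Coro1a, an actin-binding coronin of leukocytes, was called lower at the last 4 times. Its DHS over coding exon 5 of 10 (chr7:126701222-126701383) gave 5.16, 5.30 and 5.33 in the Ikaros line at 24 h and 6.59, 6.26 and 5.81 in the control line, a difference of -0.95 (SE 0.21, adjusted p = 0.0188). It was -0.93 after 6 h (adjusted p = 0.0315), -0.90 after 12 h (adjusted p = 0.0258) and -0.94 after 18 h (adjusted p = 0.025). The groups did not overlap at these times, as the naming rule required. At 0 h it gave 5.32, 5.15 and 5.09 against 5.80, 5.21 and 5.72, which did not pass (adjusted p = 0.211). The 3 promoter DHS of Coro1a differed by -0.22, 0.23 and -0.26 at 24 h (adjusted p = 0.792, 0.879 and 0.691). With the trends removed the differences of the coding exon DHS were -0.79, -0.69, -0.75 and -0.77 at 6, 12, 18 and 24 h, and none passed (adjusted p = 0.147, 0.248, 0.196 and 0.16). The call was lost at each of these times with quantile normalisation, and without any 1 of the 6 libraries except control replicate 6 at 6 h, control replicate 4 at 12 and 18 h, and replicate 6 of either line at 24 h (adjusted p between 0.0517 and 0.207).

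Tnf, the inflammatory cytokine, and Map6, which stabilises microtubules, were lower at 12 and 24 h. The Tnf DHS at chr17:35200561-35200731 gave 4.97, 4.67 and 4.85 in the Ikaros line at 24 h and 5.95, 5.47 and 6.03 in the control line, a difference of -0.99 (SE 0.23, adjusted p = 0.0278), and -1.08 at 12 h (adjusted p = 0.0182). The promoter DHS of Tnf differed by a like amount at 24 h, -0.97 (adjusted p = 0.0152). Map6, over the start of its last coding exon or its UTR at chr7:99317628-99318147, gave 4.65, 4.56 and 4.52 against 5.43, 5.44 and 5.82, a difference of -0.99 (SE 0.21, adjusted p = 0.0175), and -0.94 at 12 h (adjusted p = 0.0237). Of the 520 bases of the Map6 DHS only 42 are coding, and 478 are annotated as UTR. At 0 h the groups overlapped in both, with differences of 0.26 and 0.14. The calls held with the trends removed. They were lost without any 1 of the Ikaros libraries, except without replicate 5 for Tnf at 12 h, and without control replicate 5 at 12 h in both, 6 at 12 h in Map6, 6 at 24 h in both and 4 at 24 h in Tnf (adjusted p between 0.0591 and 0.129).

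**Figure D3:**
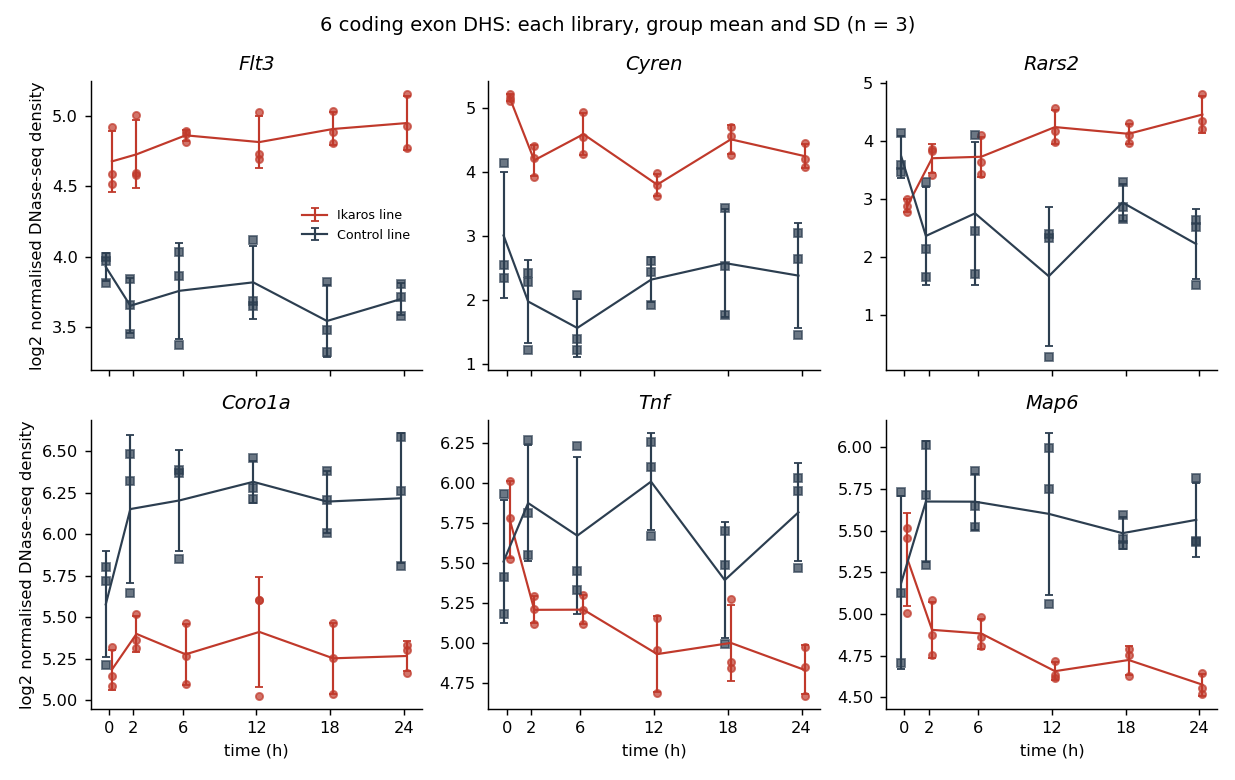
log2 normalised DNase-seq density by time in h in 6 coding exon DHS, with each library as a point, and group means (lines) and SD (bars, n = 3) for the Ikaros and control lines. Flt3, Cyren and Rars2 were higher and Coro1a, Tnf and Map6 lower in the Ikaros line at 24 h. Flt3 and Cyren also differed at 0 h.

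The other 15 DHS called at 24 h covered genes of varied function, and those outside the naming rule are given because they passed. Lower were Pgf (-0.88; placental growth factor), Rad52 (-0.91; recombination), A930004D18Rik (-0.86), Rai1 (-0.85), Hist1h1d (-0.82; a linker histone), Adgrg3 (-0.80; an adhesion receptor), Hnrnpl (-0.74), Srfbp1 (-0.74), Flot1 (-0.65; a membrane raft protein), Rhd (-0.64; a blood group antigen), Gm16253 (-0.62; its DHS also overlaps coding sequence of Polr3gl) and Scd2 (-0.62; a fatty acid desaturase). Higher were Sh3d19 (1.06), Cubn (1.09; an endocytic receptor) and Kcnt2 (0.94; a potassium channel). Pgf passed at 6, 12 and 24 h, and at 12 h its Ikaros libraries gave 4.67, 4.72 and 4.62 against 5.54, 5.55 and 5.58 in the control line, a difference of -0.89 (SE 0.16, adjusted p = 0.00578).

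The remaining DHS named by the rule passed at 1 time. At 6 h Lrrc66 was higher by 2.04 (SE 0.49, adjusted p = 0.0431) and Hspg2, the basement membrane protein perlecan, by 1.93 (SE 0.41, adjusted p = 0.0241), and Clip2, a microtubule linker, was lower (-0.76, SE 0.17, adjusted p = 0.0291). The Lrrc66 and Hspg2 DHS hold 4 and 6 coding bases. At 18 h Crybg2 (-1.28, SE 0.30, adjusted p = 0.037) and Rtn2, a reticulon (-0.77, SE 0.19, adjusted p = 0.0481), were lower. Of these 5, Crybg2 also passed at 0 h (-0.94, adjusted p = 0.0374). The Rtn2 DHS holds 13 coding bases of 505, and 369 of its bases are annotated as UTR. With the replicate block Lrrc66 (adjusted p = 0.0629) and Rtn2 (adjusted p = 0.0665) did not pass. Each of the 5 calls was lost without 4 to 6 of the 6 libraries (adjusted p between 0.063 and 0.221), all 6 for Rtn2, and all but the Hspg2 call also with the trends removed.

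Base composition and level moved with the direction of the calls. Of the 15 DHS lower at 24 h, 14 lay among the 865 coding exon DHS with the higher GC content and all 15 in the 865 with the higher mean level, while 5 of the 6 higher ones lay among the GC-poor and 5 among the low-level DHS. The part of GC content and level in these calls was not tested. At 0 h the 865 GC-poor DHS held 91 of the 136 lower and 8 of the 43 higher calls. Among DHS of 48 to 56% GC, 7 of 740 coding exon DHS were lower at 24 h (0.946%) and 0 higher, against 0.624% lower and 0.32% higher of all DHS in that range. The lower and higher shares were 0.906% and 0.181% in noncoding exon DHS, 0.82% and 0.152% in promoter DHS, and 0.51% and 0.416% in 7445 intron DHS. With trends in mean level, GC content and width removed, 10 coding exon DHS passed at 24 h, 3 higher and 7 lower, and with quantile normalisation 33 passed, 7 higher and 26 lower. The 24 h count was between 3 and 9 without any 1 of the 6 libraries, lowest without Ikaros replicate 4, and 0 without batch replicates 5 or 6, where 183 and 188 had an unadjusted limma p below 0.05.

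**Figure D4:**
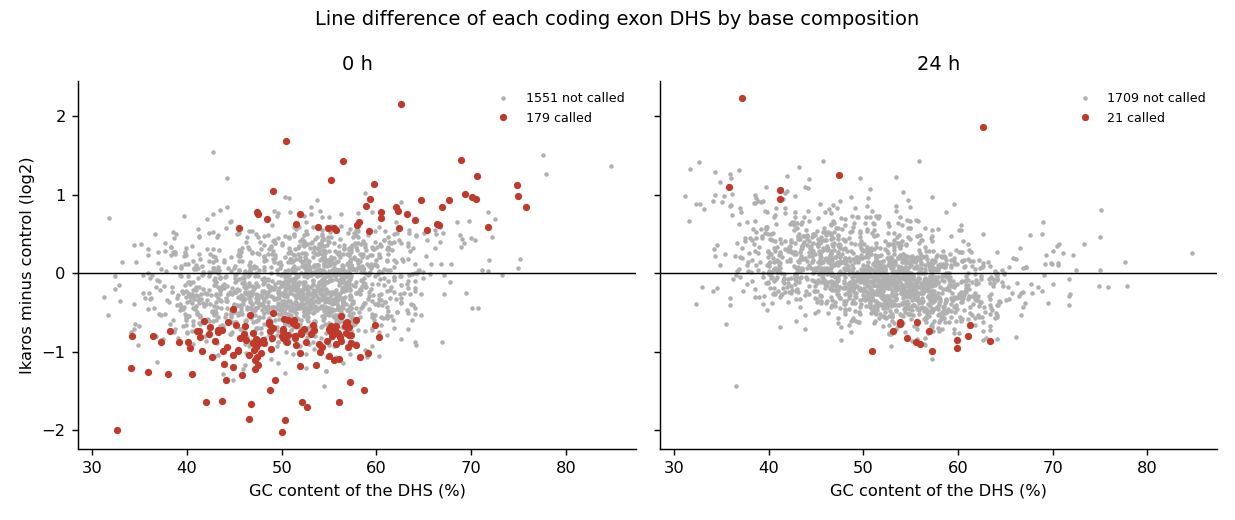
Ikaros minus control (log2) of each coding exon DHS against its GC content in percent at 0 h and 24 h, with called DHS in red (179 and 21). At 24 h 14 of the 15 called lower DHS are among the 865 GC-rich DHS and 5 of the 6 called higher DHS among the 865 GC-poor ones.

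The change of the line difference from 0 h to 24 h was asked to set the difference under the drug against the one before it. It passed at 80 coding exon DHS (4.62%), with 43 rises (2.49%) and 37 falls (2.14%), against 2.85% and 3.4% of all DHS. Promoter DHS fell far more often than they rose (10.1% against 0.556%), and intron DHS rose more often than they fell (3.58% against 0.797%). Of the 43 rises among coding exon DHS 36 lay among the GC-poor and of the 37 falls 33 among the GC-rich DHS. The median change was 0.15 in coding exon DHS and 0.13 over all DHS.

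Fubp1, Rars2 and C9orf72 had the largest rises. In Fubp1 the difference went from -2.0 at 0 h to 1.41 at 24 h, where the libraries gave 4.82, 4.06 and 3.78 against 2.38, 3.11 and 2.93, a change of 3.41 (SE 0.81, adjusted p = 0.0168). Rars2 changed by 3.08 (SE 0.68, adjusted p = 0.0129). C9orf72, a protein of autophagy and vesicle traffic, has a wholly coding DHS in its last coding exon (chr4:35192923-35193065) that went from 2.83, 0.95 and 3.03 against 4.42, 3.50 and 3.79 to 4.43, 3.28 and 3.79 against 2.60, 1.97 and 3.23, a change of 2.87 (SE 0.76, adjusted p = 0.0275). All 143 bases of the C9orf72 DHS are also annotated as UTR. In Fubp1, Rars2 and C9orf72 the Ikaros libraries were below the control libraries at 0 h and above them at 24 h. Groups that did not overlap at 24 h were required by the naming rule. Ranking by the change favours DHS with a low difference at 0 h, so the separation at 0 h is not a separate result.

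Chd2, Sgk1 and A930004D18Rik had the largest falls. Chd2, a chromatin remodelling enzyme, has a DHS inside coding exon 37 of 38 (chr7:73435876-73435962) that gave 5.88, 5.64 and 4.73 against 4.53, 3.77 and 4.41 at 0 h and 3.32, 3.74 and 3.90 against 4.50, 4.60 and 4.44 at 24 h, a change of -2.04 (SE 0.50, adjusted p = 0.0194). Sgk1, a kinase induced by serum and glucocorticoids, changed by -1.54 (SE 0.44, adjusted p = 0.0352), from 5.79, 4.89 and 4.96 against 4.47, 4.55 and 3.46 to 4.44, 4.68 and 4.37 against 4.82, 5.05 and 5.07. A930004D18Rik changed by -1.41 (SE 0.29, adjusted p = 0.00966), from 0.54 at 0 h to -0.86 at 24 h. Of the 604 bases of its DHS only 8 are coding, and 596 are annotated as UTR. With the trends removed 5 of these 6 changes did not pass, at 2.09 in Fubp1 (adjusted p = 0.205), 2.01 in Rars2 (adjusted p = 0.168), 2.05 in C9orf72 (adjusted p = 0.203), -1.73 in Sgk1 (adjusted p = 0.0659) and -0.74 in A930004D18Rik (adjusted p = 0.0796), while Chd2 did (-2.20, adjusted p = 0.0471). Leaving out 1 of the 12 libraries ended the call of Fubp1 for control replicate 6 at 0 h (adjusted p = 0.0508), that of C9orf72 for 6 libraries and that of Sgk1 for 8 (adjusted p between 0.0542 and 0.116), and no call of the other 3. The control means of Chd2 were 4.24 and 4.51, and its Ikaros means 5.42 and 3.65. The count of 80 was 26 without control replicate 6 at 0 h, between 32 and 39 without control replicate 4 or 6 or any Ikaros replicate at 24 h, and 48 without Ikaros replicate 4 at 0 h.

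**Figure D5:**
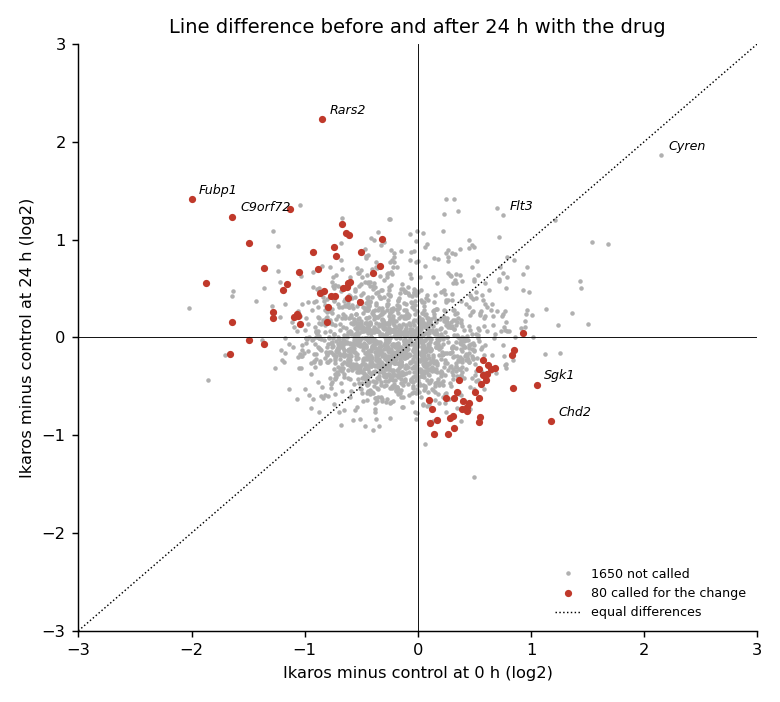
Ikaros minus control (log2) at 24 h against 0 h for the 1730 coding exon DHS, with the 80 called for the change in red and the dotted line where both differences are equal. Rars2, Fubp1 and C9orf72 lie at upper left and Chd2 and Sgk1 at lower right, while Flt3 and Cyren, not called for the change, are above 0 on both axes.

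Change over time within a line was tested last. In the Ikaros line 39 coding exon DHS passed the F-test (2.25%), near the 2.29% of all DHS, and in the control line 3 passed (0.173%), near 0.148%. In all 39 the mean at 0 h was the extreme of the 6 group means, the lowest in 23 and the highest in 16, and this held for all 1207 DHS called in the Ikaros line over the whole table. In the control line 0 h was an extreme in 1 of the 3, and in 42.3% of the 78 called over the whole table. The count of 39 was 4 without Ikaros replicate 4 at 0 h and 17 without Ikaros replicate 5 at 0 h, and between 19 and 23 without replicates 4 or 6 at 12 h or 4 or 5 at 24 h.

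Gsdme, a gasdermin that forms membrane pores, had the smallest p in the Ikaros line, in a DHS over coding exon 6 of 9 (chr6:50220962-50221118). It gave 3.22, 3.03 and 3.57 at 0 h, and its later group means lay between 4.32 and 5.04 (adjusted p = 0.000553), while the control means lay between 4.37 and 4.80. Cog3, of the Golgi tethering complex, rose from a mean of 2.83 at 0 h to 3.74 to 4.35 later (adjusted p = 0.00198), and Cyp2b19, a cytochrome P450, from 2.19 to 3.45 to 4.52 (adjusted p = 0.0057). In the control line the 3 were Sh3d19 (adjusted p = 0.0204), Itln1, an intelectin, whose mean was 4.34 at 0 h and 2.47 at 6 h (adjusted p = 0.0316), and Gm16253 (adjusted p = 0.046).

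Both vectors carry the hormone-binding domain of the estrogen receptor, and 2 coding exon DHS lie in the mouse gene Esr1, among 12 DHS of that gene. The DHS over coding exon 5 of 8 had a mean level of 3.37, and at 24 h it gave 2.98, 3.93 and 3.32 in the Ikaros line and 2.87, 3.78 and 3.20 in the control line. The DHS over coding exon 7 had a mean level of 4.55, and gave 4.53, 4.39 and 3.97 against 4.31, 5.16 and 4.38. The groups overlapped in both, with differences of 0.12 (SE 0.53, adjusted p = 0.949) and -0.32 (SE 0.37, adjusted p = 0.76). The first was 93.2% coding and the second 75.9%. The Esr1 levels were not outstanding in the table, at the 16.1 and 78.1 percentiles of all DHS.

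The gene lists were thinly covered by coding exon DHS. Of 43 B-lineage regulators Nfkb1 and Spib held 1 each, of 35 genes of pre-B receptor and cytokine signalling Pik3ap1 and Pik3cd, of 42 chromatin regulators 5 held 1 each, among them Arid1a and Kmt2a, of 31 cell cycle and replication genes Ccnd1, Cdk6, Mcm2, Pold1, Pole and Rrm2, and of 20 glycolysis genes Eno1. In the limma fit 0 of these 16 DHS passed at 24 h, against 1.33% of all DHS in either direction, and 2 had an unadjusted p below 0.05, Arid1a (0.49, adjusted p = 0.262) and Pold1 (-0.62, adjusted p = 0.32). At 0 h, when 12.9% of all DHS passed in either direction, 2 of these 16 DHS did. Both were among the 5 chromatin regulator DHS, with Arid1a at 0.63 and Kmt2a at -1.04. The DHS in Spib, an Ets factor of B cells, gave 3.93, 4.18 and 4.52 in the Ikaros line at 24 h and 4.55, 4.47 and 5.22 in the control line (adjusted p = 0.396).

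Families by symbol were 10 DHS of Zfp genes, 11 of collagens, 12 of Myo myosins, 7 of kinesins, 5 of axonemal dyneins and 1 each of protocadherins and olfactory receptors, and 0 lay in immunoglobulin segments. In the limma fit 0 of these 47 DHS passed at 24 h, against 1.33% of all DHS, and 9 had an unadjusted p below 0.05, led by Dnah11 (0.92, adjusted p = 0.0825). At 0 h 1 each passed among Zfp genes (Zfp608, higher), protocadherins (Pcdh15, lower), collagens (Col5a3, lower), kinesins (Kif9, lower), dyneins (Dnah14, lower) and myosins (Myo18a, lower), which makes 6 of 47, against 12.9% of all DHS. Of the 12 myosin DHS 11 had a negative difference at 0 h, with a median of -0.35, against 67.6% of all coding exon DHS with a negative one.

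Only 4 genes held 4 or more of these DHS. Syne1, which links the nucleus to the cytoskeleton and has 145 coding exons, held 7, with mean levels from 2.86 to 4.30, and 1 passed at 0 h and 1 for the change. Hmcn2, a hemicentin with 98 coding exons, held 5, at 3.50 to 4.49, and 1 passed at 0 h and 1 for the change. Zan, a sperm membrane protein, held 5, at 3.63 to 4.80, and 1 passed for the change. Crybg2 held 4, at 4.33 to 4.64, all negative at 24 h (-0.72 to -0.36), and by limma 1 passed at 0 h and 0 at 24 h. Over all DHS 12.9% passed at 0 h, 6.26% for the change and 1.33% at 24 h.

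A promoter DHS of the same gene was in the table for 912 coding exon DHS (52.7%). Of these 912, 219 (24.0%) were higher than the mean of their promoter DHS. At 0 h their median difference was -0.23, and that of their promoters 0.38, and exon and promoter had the same sign in 36.6% of pairs. At 24 h the medians were -0.07 and -0.07, with the same sign in 56.1%. The coding exon DHS with no promoter DHS in the table had a median level of 3.96, against 3.92 for those with one.

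Motifs were counted in 200 bp around the centre of each DHS on both strands, also where the DHS was narrower, and none of the strings contains another. The core of CTCF, the insulator protein, AGNNGGCGC, was in 354 coding exon windows (20.5%), against 9.17% of intron, 11.2% of promoter, 11.7% of intergenic and 11.0% of all windows. Among DHS of 48 to 56% GC it was in 19.9% of coding exon and 9.85% of intron windows. Those 354 DHS had a median level of 4.09 against 3.90 for the others, and at 0 h 55 of them (15.5%) passed, with a median difference of -0.31, against 10.3% and -0.22 in all coding exon DHS and 12.9% of all DHS passing. The Coro1a, Chd2 and Gsdme sequences above hold these letters on 1 strand or the other.

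The Ikaros core TGGGAA was in 16.5% of coding exon windows and 17.2% of all. At 24 h 3 of those 286 DHS passed (1.05%), against 1.21% of all coding exon DHS. TGTGGT, the Runx site, was in 21.2% against 21.6% of all windows, CAGCTG, an E-box of E proteins, in 17.1% against 14.8%, CCCNNGGG, the Ebf1 core, in 13.6% against 12.4%, and GAGGAAGT, for PU.1, in 3.93% against 5.07%. Of the 235 coding exon DHS with the Ebf1 core 8 passed at 24 h (3.4%), when 1.33% of all DHS did. The shares passing were 1.13% with the CTCF core, 1.09% with the Runx site, 1.35% with the E-box and 1.47% with the PU.1 letters. A link between motif and call was not tested.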

How the data were processed

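DNase-seq libraries of 36 samples were analysed from 1 table. The deposited values are log2 normalised densities: per the study's methods and the submitters' processing notes, the authors aligned reads to mm10 (the notes name Bowtie and the methods Bowtie2), called peaks with HOMER, merged them with bedtools, counted reads per DHS, scaled them by RPKM and TMM, and removed noise with ARSyN, which models the groups. The 12 group means span 6 of 11 possible dimensions, so they are not independent, and a shared spread may understate their error. The log base was settled from the values: base 2 gives RPM sums of 370505 to 433838 over the DHS of a library, and base e sums of 1579879 to 2344641, more than all reads of a library can give. Depth per library is unknown, so no counting interval is given.

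The lines were compared by limma 3.58.1 under R 4.3.3 (12 group means, 36 libraries, eBayes with trend, two-sided, Benjamini-Hochberg adjustment over all 52788 DHS, threshold 0.05). On simulated data for 24 h, 175 of 200 DHS changed by a log2 of 2 were recovered (87.5%), with 9 false calls. The noise was drawn independently for each DHS and library, with the same spread in every group and no dependence between groups. The number of false calls therefore cannot be carried over to these data. A change of 2 is larger than most differences called at 24 h, so the recovered share does not hold for those. Summaries used Python 3.11.15. Coordinates are as deposited and were read as inclusive, which leaves 1 bp open. Exon numbers count coding exons of 1 GENCODE vM21 transcript. A base was counted as coding when any annotated transcript had it as coding, and some such bases are also annotated as UTR. Widths, GC content and motifs came from GRCm38. Peak merging sets the widths.

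Named DHS were, per comparison, the 3 largest positive and negative called values with groups that did not overlap, the 3 smallest p-values of each F-test, the 5 highest means, genes with 4 or more members, Esr1, and up to 3 members per gene list. Symbols starting Rpl or Rps matched only Rps19bp1 and Rps6kb1, which are not ribosomal proteins, and were not used. The members and lists were chosen with earlier results of these data known. Replicates were repeats of the time course in GFP-sorted cells of each line. The p-values rest on the spread left between these batches after ARSyN, pooled over all 12 groups. They do not measure the full spread between batches, nor that between transductions. The labels tie each replicate number to a batch, which pairs the samples. Deviations of same-numbered libraries of the 2 lines correlated between -0.175 and 0.183 over 18 pairs, with 3 over 0.1. Alternatives were quantile normalization, leaving out low DHS, a replicate block, only the groups compared, a spread per group, trends removed, and leaving out a batch or a library.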

Additional observations from a re-analysis of the deposited data

Results flagged for a closer look

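The line difference changed from 0 h to 24 h beyond the threshold at 80 coding exon DHS, by the limma contrast of the 2 differences, which tests the interaction of line and time. The largest were the rises of Fubp1 (3.41), Rars2 (3.08) and C9orf72 (2.87) and the falls of Chd2 (-2.04), Sgk1 (-1.54) and A930004D18Rik (-1.41). The 0 h cells were collected separately, so a change from 0 h and that collection cannot be told apart. With trends in mean level, GC content and width removed 7 of the coding exon DHS passed, and of these 6 only Chd2 did.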

How the results depend on the processing

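Counts of called coding exon DHS depended on the processing, and the cause was not tested. The main counts were 179, 2, 11, 21, 6 and 21 at 0, 2, 6, 12, 18 and 24 h, 80 for the change, and 39 and 3 for time in the Ikaros and control lines. Quantile normalisation gave 110, 1, 7, 12, 4 and 33 at the 6 times, with 3 of the 4 at 18 h higher and 1 lower, and gave 31 for the change (14 rises, 17 falls) and 0 for time in the control line. Leaving out low DHS gave 1 at 2 h and 7 at 6 h. Fitting only the groups compared gave 0 at 0, 2, 12 and 18 h, 1 at 6 h, 1 for the change, and 119 and 0 for time in the Ikaros and control lines. A spread per group gave 24, 0, 21, 36, 42 and 107 at the 6 times, 47 for the change and 0 for time in the control line. With trends removed the counts were 57 at 0 h, 6 at 12 h, 10 at 24 h, 7 for the change (4 rises, 3 falls), and 15 and 1 for time. Behind the counts of 0, limma gave 226, 108, 266 and 249 DHS with an unadjusted p below 0.05 at 0, 2, 12 and 18 h and 67 for time in the control line with only the groups compared, 114 at 2 h and 62 for time in the control line with a spread per group, and 112 for time in the control line with quantile normalisation.

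The replicate block, with the number as pairing, gave 168, 2, 9, 15, 5 and 17 at the 6 times, 65 for the change and 26 and 2 for time, and moved no count by over 1.5 times. Leaving out a batch or 1 library gave 37 to 206 at 0 h, 0 to 12 at 2 h, 0 to 16 at 6 h, 0 to 23 at 12 h, 0 to 5 at 18 h, 0 to 9 at 24 h, 0 to 118 for the change, 0 to 38 for time in the Ikaros line and 0 to 10 for time in the control line. A group left with 2 libraries shared the spread fitted over the other groups. At 12 h the count was 9 without control replicate 5, and 4, 7 and 1 without Ikaros replicates 4, 5 and 6. At 6 h it was 5, 2 and 2 without Ikaros replicates 4, 5 and 6. At 2 h leaving out any 1 of the 6 libraries moved the count by over 1.5 times, and at 18 h it was 3 without control replicates 4 or 6, and 1, 1 and 2 without Ikaros replicates 4, 5 and 6. The 37 named results were each refitted under 14 to 21 alternatives, 576 refits in all, of which 294 kept the call, 282 lost it and 0 changed sign. The number of named results that kept their call under every alternative was 0. With trends removed 22 of the 37 lost it, with quantile normalisation 15, with only the groups compared 29, with a spread per group 6, with the replicate block 3 (Lrrc66 at 6 h, Cep126 at 12 h and Rtn2 at 18 h), without batch replicate 4, 5 or 6 30 each, and without at least 1 single library 29. The least stable were Rtn2 at 18 h, lost in 14 of 15, and Cep126 at 12 h, lost in 13 of 14. Flt3 at 24 h lost its call only without batch replicates 5 or 6, and Cyren at 6 h only without batch replicate 5. Depth is unknown, so what depth limits could not be given.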
